A study of Homo sapiens with 3 samples.

Results

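The 43 genes described here encode subunits of ATP-dependent chromatin remodelers. They comprise 29 genes of the BAF family of complexes (also called mammalian SWI/SNF), the 2 ISWI ATPases, the 9 CHD ATPases and the 3 large ATPases INO80, SRCAP and EP400. They were taken by name from the 62754 genes of each deposited table, and all 43 were present, each once. The RNA came from wild-type (WT) primitive neural progenitor cells (pNPCs), an early and self-renewing neural stage, made from H1, a widely used human embryonic stem cell line. The series holds 1 group of 3 replicates, so there is no treated group and the comparisons are between genes and between libraries. All cultures received FGF2 (20 ng/ml), CHIR99021 (3 µM), hLIF (10 ng/ml), SB431542 (2 µM) and the ROCK inhibitor Y-27632 (10 µM) in an N2 and B27 medium. H1 is 1 line of 1 genetic background, and no label states that the 3 replicates were grown separately, so every p-value and SD below reflects variation among these libraries alone, and that may be technical.

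Remodelers use ATP to slide, evict or exchange nucleosomes and so set which stretches of DNA other proteins can reach. BAF complexes are built around SMARCA4 (BRG1) or SMARCA2 (BRM) and occur as canonical BAF, PBAF and non-canonical BAF, which differ in a few defining subunits. Work in mouse has shown that several positions change hands when neural progenitors leave the cell cycle. ACTL6A (BAF53A) gives way to ACTL6B (BAF53B), PHF10 (BAF45A) and DPF2 (BAF45D) to DPF1 (BAF45B) and DPF3 (BAF45C), and SS18 to SS18L1 (CREST). In mouse neurons the first of these exchanges involves the microRNAs miR-9-3p (also written miR-9*) and miR-124, which act on the 3′ untranslated region of ACTL6A. RNA levels are described here, and the make-up of the protein complexes was not measured.

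The letters of this control are shown first because the ACTL6 pair gave the widest of the 4 progenitor-to-neuronal differences below. The mature miR-9-3p from RefSeq (GRCh38.p14), encoded at 3 loci on chromosomes 1, 5 and 15, is given with its seed, bases 2 to 8, in capitals. The search motif was the reverse complement of that seed, AGCTTTA, on the transcribed strand of the 3′ untranslated region of each gene (GENCODE 29, longest region per gene), with overlapping matches allowed. ACTL6A held 2 matches, both in its 3′ untranslated region on the plus strand of chromosome 3 (GRCh38), and each is printed below with its flanks and the match in capitals. The first site lies at chr3:179588047-179588071 and the second at chr3:179588136-179588160.
miR-9-3p: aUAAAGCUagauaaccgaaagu
ACTL6A site 1: cttacgtttcatAGCTTTAgtatac
ACTL6A site 2: taaattttttaaAGCTTTAactggc
Of the 43 members 10 had at least 1 match (23.3%), against 13.4% of 19101 protein-coding genes, but the members' regions were longer, with a median of 2101 bases against 1085 bases. At least 2 matches were found in 1 member, ACTL6A, whose region is 398 bases long. This is 2.33% of the members, no higher than the 2.44% of all protein-coding genes. A match is a description of the letters and not a measured binding site.

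Nearly all remodeler genes were read well above detection. TPM gives a level scaled for the length of the transcript and the size of the library, and a gene counts as detected here where no library has it under 1 TPM. By this measure 40 of 43 members were detected, against 62.2% of protein-coding genes and 23.0% of all 62754 genes. The members' median level was 48.0 TPM, against 6.40 TPM over all protein-coding genes. Among detected genes alone it was 52.3 TPM for the members and 21.0 TPM for protein-coding genes. Their mean levels ran from 0.303 TPM for CHD5 to 305 TPM for CHD4. Of the 43, 10 averaged at least 100 TPM, 27 lay from 10 to under 100 TPM, 3 from 1 to under 10 TPM and 3 under 1 TPM, and 15 stood above percentile 90 of protein-coding genes. The 3 undetected members were ACTL6B and BCL11B, whose products are neuronal and lymphoid or neuronal BAF subunits, and CHD5, a CHD ATPase of neurons. The members took 0.614%, 0.743% and 0.774% of the expected counts of replicates 1, 2 and 3, whose totals were 34658454, 38400092 and 30038114. The label was checked against neural progenitor markers, of which 9 of 10 were detected, the exception being PAX6 at 0.13, 0.81 and 0.38 TPM, named after its values were seen. Of 16 neuron markers 16 were detected, of 7 mesenchyme markers 7 and of 6 pluripotency markers 3. At a minimum of 5 TPM the count of neuron markers was 7. The median of mean levels was 6.93 TPM for neuron markers, 166 TPM for mesenchyme markers and 74.0 TPM for neural progenitor markers, and in bulk RNA fewer cells of a type and less RNA per cell cannot be told apart.

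**Figure D1:**
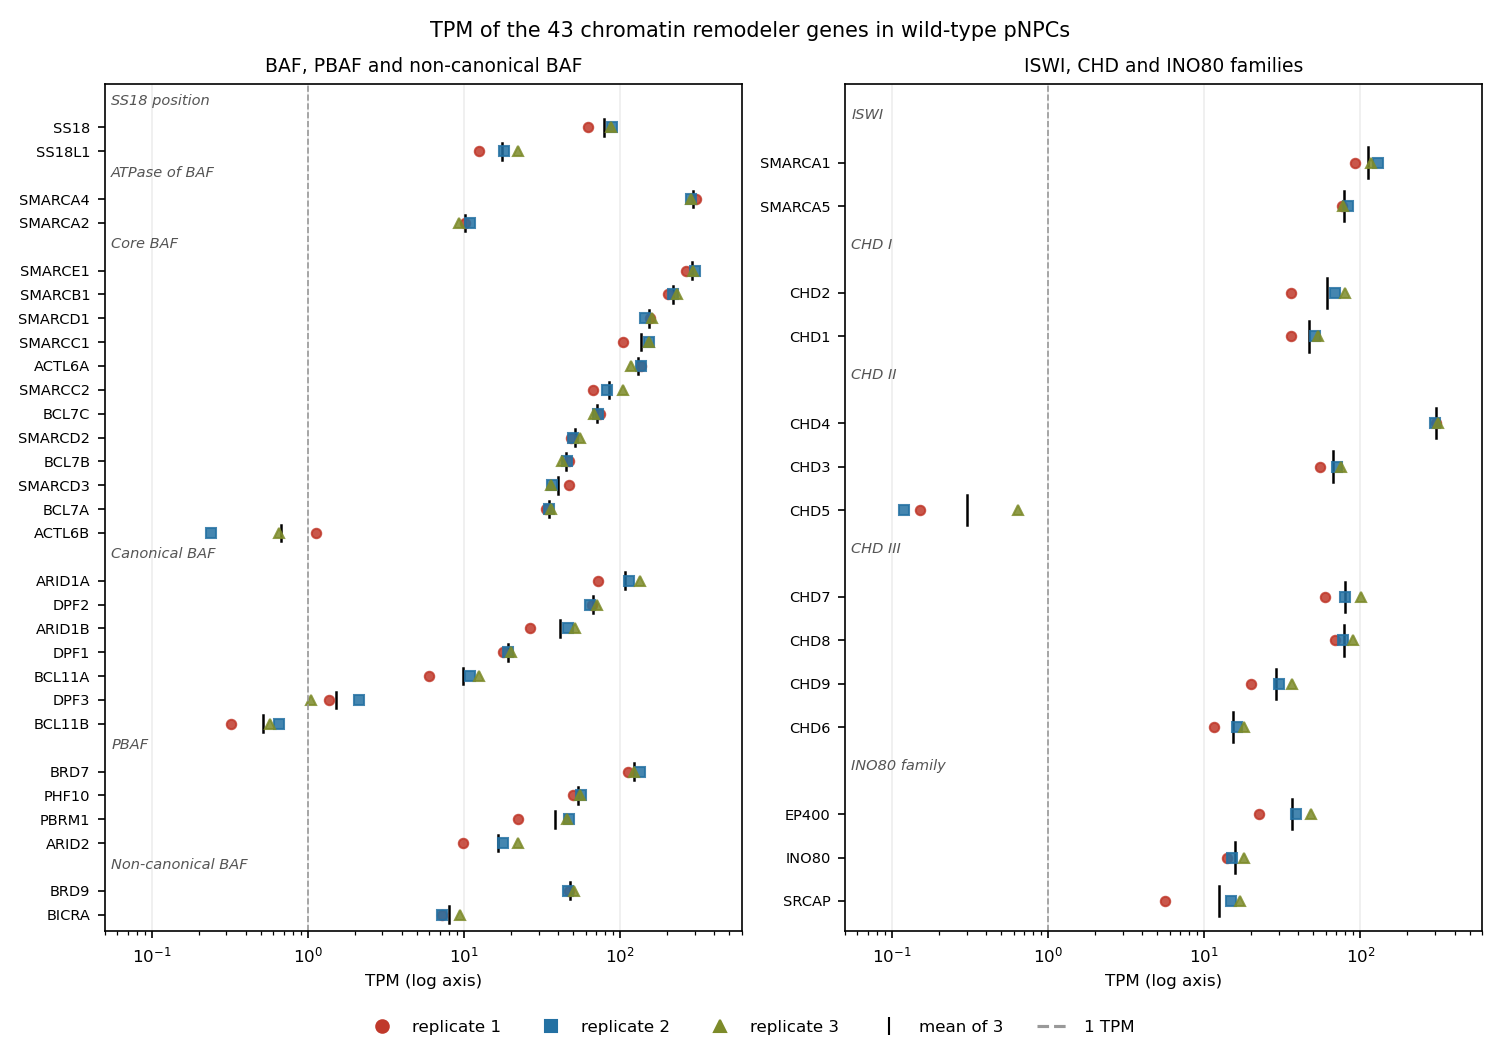
TPM of the 43 genes on a log axis, BAF family on the left and the other ATPases on the right. Points are the 3 replicates, black ticks their mean and the dashed line 1 TPM. The means of ACTL6B, BCL11B and CHD5 lie to the left of the dashed line, and SMARCA4, SMARCE1 and CHD4 lead at 287 to 305 TPM.

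At the positions that differ between progenitors and neurons, every progenitor gene was above every neuronal gene in every library. The progenitor genes ACTL6A, PHF10, DPF2 and SS18 ranged from 49.53 to 135.7 TPM over the 3 libraries, against 0.24 to 22.01 TPM for the neuronal genes ACTL6B, DPF1, DPF3 and SS18L1. The 4 neuronal genes were not alike among themselves: DPF1 and SS18L1 were read at moderate levels, whereas DPF3 was just above and ACTL6B below the detection limit. Each pair was compared within a library on log2(TPM + 0.1), a scale that understates differences of low genes, and 18 pairs were compared in all. With 3 libraries the exact two-sided sign-flip permutation test cannot give a p below 0.25, so no pair could pass a threshold of 0.05. All pairs but CHD8 and CHD7 gave this p of 0.25, which is 0.265 by exact permutation after Benjamini-Hochberg adjustment over the 18.

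ACTL6A (ENSG00000136518.17, chromosome 3, 179562926 to 179588407, GRCh38.p14) encodes the actin-like subunit that progenitor BAF shares with the INO80 and TIP60 complexes. It had 135.66, 135.7 and 116.93 TPM in replicates 1, 2 and 3. Its neuronal partner ACTL6B (ENSG00000077080.10, chromosome 7, 100643097 to 100656448) had 1.13, 0.24 and 0.65 TPM. These rest on 24, 8 and 15 counts, with 95% Poisson intervals of 0.724 to 1.68, 0.104 to 0.473 and 0.364 to 1.07 TPM that cover counting error only. The ACTL6B level was highest in replicate 1 and lowest in replicate 2, with TPM intervals that do not overlap between these 2 libraries. Their intervals in counts, 15.4 to 35.7 in replicate 1 and 3.45 to 15.8 in replicate 2, do overlap. The transcript length assigned to ACTL6B was shorter in replicate 1, 1049.99 bases against 1524 bases in replicate 2, which raises its TPM there. The difference ACTL6A minus ACTL6B was 7.57 ± 0.96 log2 units (SD, n = 3) and positive in 3 of 3 libraries, about 190-fold. Its size depends on the pseudocount, being 6.32 log2 units with 1 TPM added and 7.85 with none. ACTL6A made up 99.5% ± 0.326 of the summed TPM of the pair.

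PHF10 and the DPF genes encode the PHD-finger subunits named BAF45, of which PHF10 belongs to PBAF and the DPF proteins to canonical BAF. DPF2 had 65.91, 64.36 and 71.43 TPM in replicates 1, 2 and 3, and PHF10 had 49.53, 55.68 and 54.98 TPM. Neuronal DPF1 (ENSG00000011332.22, chromosome 19, 38211006 to 38229695) had 17.84, 19.15 and 20.01 TPM. The libraries differed little for these 3 genes, and the TPM ranges of DPF2, PHF10 and DPF1 do not overlap. Without length scaling the order of DPF2 and PHF10 turns: PHF10 had 3745.2, 4445.25 and 3523.21 counts, against 3356, 3295.83 and 2893.71 for DPF2. DPF3 (ENSG00000205683.12, chromosome 14, 72609034 to 72894101) had 1.36, 2.12 and 1.05 TPM, from 105, 149 and 93 counts. PHF10 exceeded DPF1 by 1.49 ± 0.04 log2 units and DPF2 exceeded DPF3 by 5.44 ± 0.55 (SD, n = 3). Summed, PHF10 and DPF2 held 85.5% ± 0.451 of the TPM of the 4 genes, DPF1 13.5% ± 0.179 and DPF3 1.07% ± 0.398, and the summed difference was 2.55 ± 0.05 log2 units. DPF1 thus carried nearly all of the summed TPM of the neuronal genes DPF1 and DPF3. The sum of 4 genes spans PBAF and canonical BAF, so these shares are not those of alternatives within 1 complex. Counting PHF10 in the sum lowers the shares of DPF1 and DPF3. PHF10 minus DPF1 likewise compares subunits of different complexes. Among the DPF genes alone DPF2 was highest and DPF1 next in each library.

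SS18 and SS18L1 encode closely related transcriptional co-activator subunits, SS18L1 being known as CREST for its role in calcium-dependent transcription in neurons. SS18 had 62.26, 88.37 and 86.84 TPM in replicates 1, 2 and 3. SS18L1 (ENSG00000184402.15, chromosome 20, 62143769 to 62182514) had 12.43, 18.01 and 22.01 TPM. Both were lowest in replicate 1. SS18 exceeded SS18L1 by 2.19 ± 0.19 log2 units (SD, n = 3), and SS18L1 held 17.9% ± 1.99 of their summed TPM. In the order of mean TPM ACTL6A (129 TPM) led, followed by SS18 (79.2), DPF2 (67.2), PHF10 (53.4), DPF1 (19), SS18L1 (17.5), DPF3 (1.51) and ACTL6B (0.673). The replicate ranges of SS18 and DPF2 overlap, as do those of DPF1 and SS18L1, and the order within both of these pairs changed between libraries. The ranges of DPF3 and ACTL6B also overlap, but DPF3 was above ACTL6B in 3 of 3 libraries. The order by mean TPM is one of levels per length. In expected counts SS18 was above ACTL6A, PHF10 above DPF2 and SS18L1 above DPF1 in each library.

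**Figure D2:**
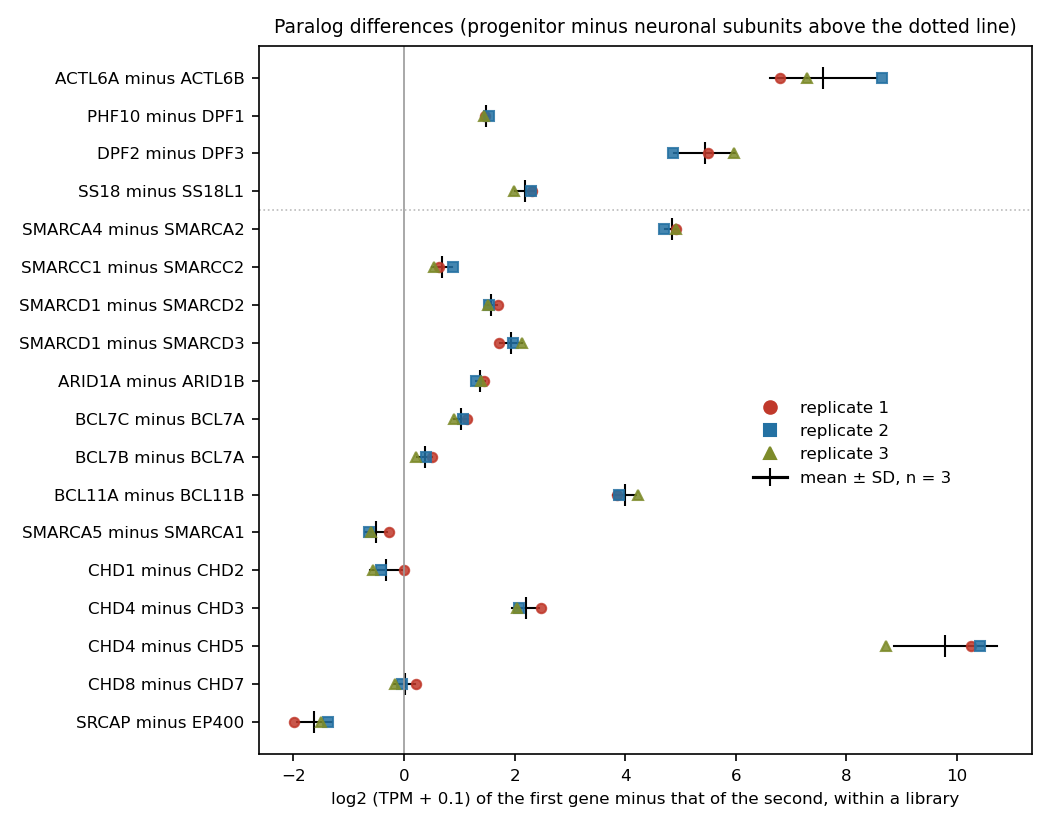
Differences of log2(TPM + 0.1) between paralogs within each library, with the 3 replicates as points and the mean ± SD in black. The 4 progenitor minus neuronal pairs at the top lie at 1.49 to 7.57, and in CPM without length scaling the 2 BCL7 pairs, SMARCA5 minus SMARCA1 and CHD8 minus CHD7 change sign.

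The starts of the neuronal genes differed in base composition. The windows from 250 bases before to 50 bases after the annotated start, taken from RefSeq (GRCh38.p14), are printed for the neuronal genes ACTL6B, DPF1 and SS18L1 on the strand of the gene, with each CG dinucleotide in capitals (CG reads the same on both strands). They are shown because the lowest of the 3 genes stands beside the 2 that were read at moderate levels.
ACTL6B, minus strand, chr7:100656399-100656698: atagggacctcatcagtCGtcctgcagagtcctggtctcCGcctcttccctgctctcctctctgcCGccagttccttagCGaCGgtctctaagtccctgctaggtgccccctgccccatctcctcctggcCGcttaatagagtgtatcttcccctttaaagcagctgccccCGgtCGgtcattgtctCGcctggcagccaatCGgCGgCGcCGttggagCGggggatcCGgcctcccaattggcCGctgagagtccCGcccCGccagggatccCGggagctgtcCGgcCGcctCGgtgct
DPF1, minus strand, chr19:38229646-38229945: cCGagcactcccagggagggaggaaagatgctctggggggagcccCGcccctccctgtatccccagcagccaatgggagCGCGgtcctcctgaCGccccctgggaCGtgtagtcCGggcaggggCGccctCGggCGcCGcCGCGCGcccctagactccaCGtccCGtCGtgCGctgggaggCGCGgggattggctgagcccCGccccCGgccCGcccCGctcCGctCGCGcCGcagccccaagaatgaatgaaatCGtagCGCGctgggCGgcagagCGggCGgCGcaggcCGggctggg
SS18L1, plus strand, chr20:62143519-62143818: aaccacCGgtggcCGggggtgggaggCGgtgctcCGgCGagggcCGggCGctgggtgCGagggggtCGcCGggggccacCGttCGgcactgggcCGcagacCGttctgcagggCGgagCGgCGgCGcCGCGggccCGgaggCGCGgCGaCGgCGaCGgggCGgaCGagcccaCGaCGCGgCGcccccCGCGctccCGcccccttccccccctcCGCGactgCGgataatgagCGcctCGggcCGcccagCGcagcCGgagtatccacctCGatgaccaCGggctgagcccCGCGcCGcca
The ACTL6B window held 22 CG dinucleotides, a number reached by 49.0% of windows of protein-coding genes. The DPF1 window held 36 (reached by 16.4%) and the SS18L1 window 49 (reached by 2.00%). The 2 windows of DPF3 held 18 and 21. Of the progenitor genes, the PHF10 and DPF2 windows held 47 and 33, and the 2 windows of SS18 held 21 and 23, close to ACTL6B. ACTL6A had no window at hand. A relation between this number and the RNA level was not tested. RefSeq windows were at hand for 36 of the 43 members, 58 windows in all. Their median was 27.5 CG dinucleotides and 67.3% G or C, against 21.0 and 62.3% in 21558 windows of protein-coding genes. DNA methylation and factor binding at these windows were not measured.

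Genes linked in the literature to the exchange of subunits were read as follows. REST, a repressor of neuronal genes outside neurons, stood at 15.3 ± 1.55 TPM (SD, n = 3), and its partner RCOR1 had 11.56, 17.29 and 16.16 TPM. PTBP1, a splicing repressor of non-neuronal cells, stood at 345 ± 12.8 TPM, and PTBP2, its neuronal counterpart, at 52.0 ± 7.95 TPM. The polyadenylated host transcript MIR9-1HG was not detected, with 0.16, 0.83 and 1.05 TPM from 3, 13 and 14 counts. Host transcripts of the miR-9 loci on chromosomes 5 and 15 were not examined. MIR124-2HG had 12.09, 9.6 and 18.49 TPM and MIR124-1HG 2.55, 1.14 and 0.95 TPM, and host transcripts do not give the level of the mature microRNA. Neuron markers and neuronal subunits were summed in each library. The 16 markers, led by TUBB3, NEFM and GAP43, summed to 1243, 774 and 708 TPM in replicates 1, 2 and 3, mostly from TUBB3 and NEFM. Of the 16, 12 were highest in replicate 1, against 24.9% of detected protein-coding genes, and 2 were lowest there. The 4 neuronal subunits summed to 32.8, 39.5 and 43.7 TPM in the same libraries, a sum made up mostly of DPF1 and SS18L1. ACTL6B was highest in replicate 1 and lowest in replicate 2, DPF3 was highest in replicate 2, and DPF1 and SS18L1 were highest in replicate 3. The part of neuronal cells in the level of any subunit was not tested.

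Among the other BAF positions the ATPase pair was the most one-sided. SMARCA4 (ENSG00000127616.22, chromosome 19, 10961030 to 11062273) had 307.03, 285.81 and 285.14 TPM, against 10.11, 10.89 and 9.31 TPM for SMARCA2 (ENSG00000080503.25, chromosome 9, 2015347 to 2193620). The spread between libraries was small for both, and SMARCA4 held 96.7% ± 0.286 of their summed TPM, a difference of 4.84 ± 0.12 log2 units (SD, n = 3). Of the core subunits the DNA-binding SMARCE1 (BAF57) averaged 287 ± 20.4 TPM and SMARCB1 (BAF47), the subunit that contacts the nucleosome acidic patch, 217 ± 15.5 TPM. The scaffold gene SMARCC1 (BAF155) had 103.94, 153.61 and 151.8 TPM and SMARCC2 (BAF170) 66.99, 82.84 and 103.93 TPM. SMARCC1 was higher in each library, by 0.69 ± 0.18 log2 units, and held 61.7% ± 2.91 of the pair.

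The 3 SMARCD (BAF60) genes, alternatives at a further core position, were all detected. SMARCD1 averaged 153 ± 7.44 TPM, SMARCD2 51.2 ± 3.86 TPM and SMARCD3, the form studied in heart and muscle, 40.1 ± 6.10 TPM (SD, n = 3). SMARCD1 held 62.6% ± 0.679 of their sum. SMARCD3 had 47.09, 36.8 and 36.26 TPM and was highest in replicate 1, unlike most members. The small BCL7 subunits averaged 71.3 ± 3.24 TPM for BCL7C, 45.0 ± 2.48 TPM for BCL7B and 34.8 ± 1.41 TPM for BCL7A. This order is one of levels per length: BCL7C minus BCL7A was 1.03 ± 0.12 and BCL7B minus BCL7A 0.37 ± 0.14 log2 units in TPM, but -1.25 and -1.07 in CPM without length scaling. The weighted transcript length was 952.46 to 992.48 bases for BCL7C and 1556.13 to 1576.82 bases for BCL7B, against 3780.24 to 3939.22 bases for BCL7A.

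The subunits that define the 3 forms of BAF were unequal. In canonical BAF ARID1A (BAF250A), a large DNA-binding subunit often mutated in cancer, had 72.31, 113.75 and 134.29 TPM, against 26.35, 46.09 and 51.04 TPM for its alternative ARID1B, a gene of Coffin-Siris syndrome. Both were lowest in replicate 1 and highest in replicate 3, and their difference was steady at 1.38 ± 0.08 log2 units (SD, n = 3). The zinc-finger factors BCL11A and BCL11B, dedicated subunits with roles in blood and brain, averaged 9.81 ± 3.42 and 0.513 ± 0.172 TPM. BCL11A had 5.96, 10.96 and 12.51 TPM and was lowest in replicate 1. BCL11B had 61, 129 and 88 counts, so that it was read in all libraries although it lay below 1 TPM.

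In PBAF the bromodomain subunit BRD7 averaged 123 ± 10.4 TPM and PHF10 53.4 ± 3.37 TPM. The polybromo subunit PBRM1 had 22.04, 46.77 and 45.44 TPM and the ARID subunit ARID2 9.77, 17.88 and 22.28 TPM. Both large PBAF subunits were lowest in replicate 1, at 0.48 and 0.49 of the mean of the other libraries. In non-canonical BAF the bromodomain subunit BRD9 averaged 48.0 ± 2.40 TPM and BICRA (GLTSCR1) 7.95 ± 1.22 TPM.

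**Figure D3:**
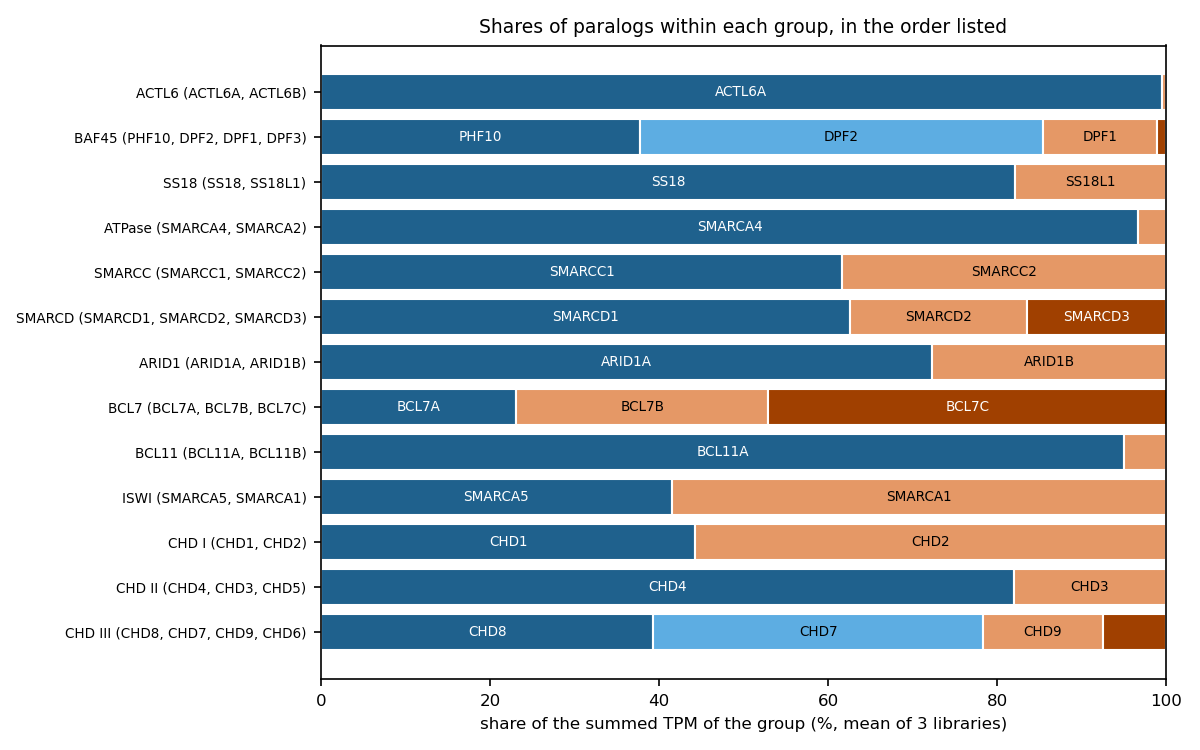
Share of each paralog in the summed TPM of its group (%, mean of 3 libraries), with segments in the order given beside each bar. ACTL6A (99.5%), SMARCA4 (96.7%) and BCL11A (95%) take nearly all of their groups, whereas the SMARCC, ISWI and CHD1 and CHD2 pairs are more evenly split. In CPM without length scaling the order turns within the BCL7 and ISWI groups, between PHF10 and DPF2, and between CHD8 and CHD7.

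The ISWI ATPases SMARCA5 (SNF2H) and SMARCA1 (SNF2L) space nucleosomes into regular arrays, and SMARCA1 is the form most studied in neural and gonadal tissue. SMARCA5 had 76.43, 83.05 and 77.04 TPM and SMARCA1 92.15, 129.17 and 116.02 TPM, so SMARCA1 was higher in each library. SMARCA5 minus SMARCA1 was -0.50 ± 0.20 log2 units (SD, n = 3), negative in 3 of 3 libraries, but 0.33 in CPM without length scaling, so that the order holds per length only. Of 11 ISWI partner genes 11 were detected, against 62.2% of protein-coding genes. Among them were the histone chaperones RBBP4 (481 ± 106 TPM) and RBBP7 (161 ± 5.07 TPM) and the Williams syndrome gene BAZ1B (90.4 ± 11.3 TPM).

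Among CHD genes the NuRD ATPase CHD4 had the highest level, and its mean was above that of every other member, although SMARCA4 was above it in replicate 1 and SMARCE1 in replicate 2. CHD4 (ENSG00000111642.16, chromosome 12, 6570082 to 6607379) had 305.2, 298.55 and 312.31 TPM, its alternative CHD3 55, 71.14 and 75.25 TPM, and the neuronal CHD5 0.15, 0.12 and 0.64 TPM from 37, 28 and 52 counts. In TPM CHD4 had the lowest coefficient of variation of the members, 2.25%, whereas in log2 CPM its replicate 1 lay -0.15 from the mean of the others, against -0.05 for SMARCA4. CHD4 held 82.0% ± 2.37 of the 3. CHD4 exceeded CHD3 by 2.20 ± 0.24 and CHD5 by 9.79 ± 0.93 log2 units (SD, n = 3), with the CHD5 difference at 7.90 with a pseudocount of 1 TPM and 10.4 with none. The higher CHD5 level of replicate 3 came with a shorter transcript length assigned there, 4271.68 bases against 9850 and 9287.9 in replicates 1 and 2, and its counts differed less than its TPM. Of 12 NuRD partner genes 12 were detected, against 62.2% of protein-coding genes. RBBP4, the deacetylase HDAC2 (424 ± 23.8 TPM) and CDK2AP1 (268 ± 17.4 TPM) were the highest. RBBP4 and RBBP7 are counted among the ISWI partners too.

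The remaining CHD genes were all detected. CHD1, which binds methylated histone H3 lysine 4 and acts in transcribed genes, had 35.77, 51.06 and 53.17 TPM, and CHD2, a gene of childhood epilepsy, 36.02, 68.25 and 79.18 TPM. They were level in replicate 1 and CHD2 was higher in the other libraries, with CHD1 minus CHD2 at -0.33 ± 0.29 log2 units (SD, n = 3). CHD8, a gene often mutated in autism, had 68.7, 77.68 and 89.52 TPM. CHD7, the gene of CHARGE syndrome with a role in neural crest, had 59.03, 79.37 and 100.18 TPM. CHD8 minus CHD7 was 0.01 ± 0.19 log2 units with 1 positive value in 3 libraries (p = 1 by the exact sign-flip permutation test), a difference smaller than the spread between replicates, and it turned to -0.67 in CPM without length scaling. CHD9 averaged 28.8 ± 8.27 TPM and CHD6 15.2 ± 3.29 TPM, lower than CHD7 and CHD8 in every library.

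The INO80 family was at modest levels. INO80, the ATPase of its complex, averaged 15.7 ± 2.10 TPM. SRCAP and EP400 are ATPases that place the histone variant H2A.Z. SRCAP had 5.58, 14.79 and 16.88 TPM, and EP400 had 22.47, 38.68 and 47.86 TPM. Both were lowest in replicate 1, and SRCAP minus EP400 was -1.62 ± 0.32 log2 units (SD, n = 3). Of 26 partner genes of the INO80, SRCAP and TIP60 complexes 25 were detected, against 62.2% of protein-coding genes. The exception was INO80D, with 0.97, 2.23 and 3.35 TPM. The detected partners were led by MORF4L1 (831 ± 80.2 TPM), VPS72 (161 ± 15.6 TPM) and RUVBL2 (139 ± 3.90 TPM). Of 13 further SNF2-family ATPases 13 were detected, against the same 62.2%. They were led by CHD1L (81.9 ± 1.37 TPM), ATRX (62.2 ± 15.2 TPM) and RAD54L (50.3 ± 3.49 TPM).

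Across the members, replicate 1 differed from the other libraries, and the size of the difference varied with transcript length. Of 40 detected members 29 had their lowest TPM in replicate 1, against 57.2% of detected protein-coding genes, and 4 had their highest there, against 24.9%. On log2 CPM, replicate 1 minus the mean of replicates 2 and 3 had a median of -0.15 over the 43 members, against 0 over protein-coding genes tested. The 14 members of over 5000 bases of mean effective length were all lower in replicate 1, by -0.06 to -1.40 with a median of -0.78. The 1809 protein-coding genes of that length had a median of -0.51. Of the 11 members under 2000 bases 1 was lower, and their median was 0.14, against 0.19 for protein-coding genes of that length. Across the 43 genes, which share the same 3 libraries and are not replicates, the deviation of replicate 1 and log2 length had a Spearman's rho of -0.82, beside -0.52 across 14017 protein-coding genes. The mean fragment length implied by the deposited lengths was 216 bases in replicate 1 and 253 and 259 bases in replicates 2 and 3, and the part of fragment length in these deviations was not tested. The 7 mesenchyme markers also differed in replicate 1, summing to 657, 1372 and 959 TPM in replicates 1, 2 and 3 with 6 of 7 lowest in replicate 1. The part of other cell types in the members' deviations was not tested.

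**Figure D4:**
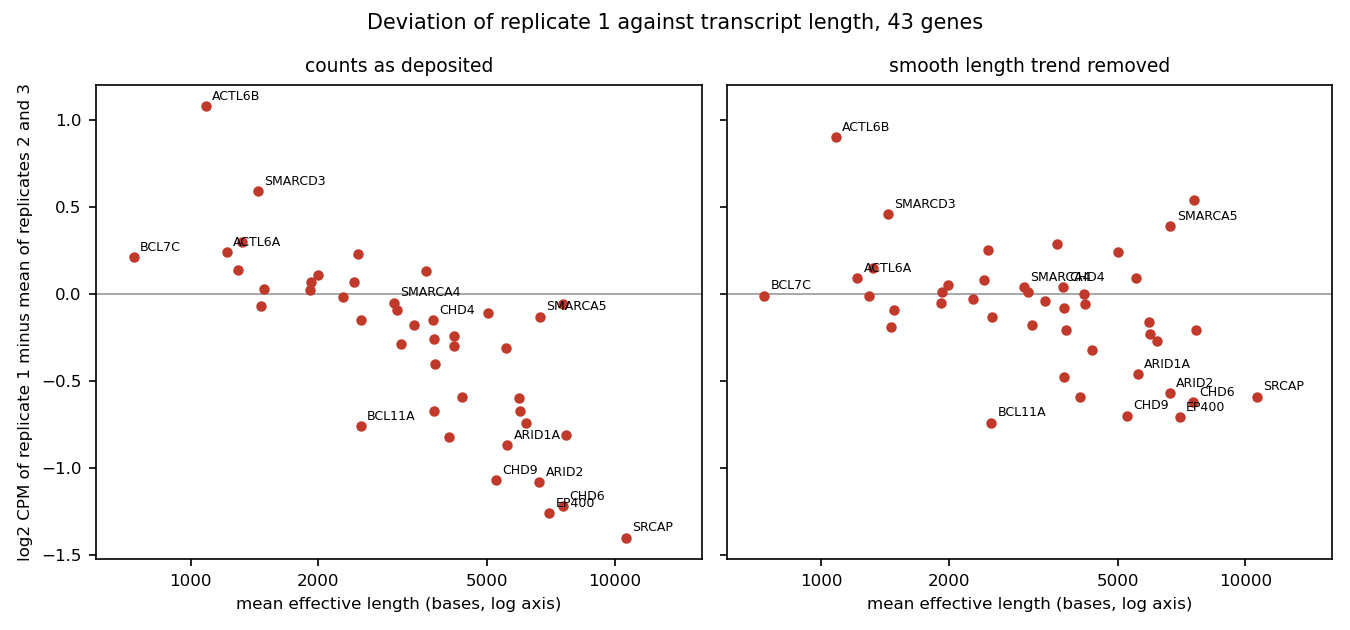
Difference of replicate 1 from the mean of replicates 2 and 3 (log2 CPM) against mean effective length (bases, log axis) for the 43 genes, as deposited on the left and with a smooth length trend over all tested genes removed on the right. On the left the 14 genes over 5000 bases lie from -1.40 (SRCAP) to -0.06 (CHD5), with a median of -0.78, and on the right SRCAP lies at -0.59.

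The number of members that varied between libraries beyond the spread of other genes at their level depended on the test. Of the 43, 42 passed the filter on low counts (ACTL6B did not), and edgeR's test of excess spread called 1 of them at an adjusted p under 0.05, against 1.59% of 17046 genes. This was SRCAP, with 1485.9, 4184.27 and 3592.24 counts and an edgeR adjusted p of 0.0196. EP400 (edgeR adjusted p = 0.0578) and CHD6 (edgeR adjusted p = 0.0706) came next. At an unadjusted edgeR p under 0.05 there were 7 members, against 7.35% of all genes. With the length trend removed edgeR called 0 members, against 1.84% of all genes, with 3 at an unadjusted p under 0.05 and SRCAP at an edgeR adjusted p of 0.820. With any 1 library left out edgeR called 0 members, but the genes called in all fell from 271 to between 95 and 117. This 0 is therefore not a result about the members. DESeq2, with each library set against the other 2, called 13 members, all of them for replicate 1. That arm is a single library, assumed to vary like the other 2, so these calls compare libraries and have no replicate of their own. The length trend was not removed in DESeq2, and p-values were adjusted within each comparison, not across the comparisons. The 13 stand against 9.79% of genes called for any library. Of the 13 members 12 were lower in replicate 1, namely ARID1A, ARID1B, ARID2, PBRM1, CHD1, CHD2, CHD6, CHD7, CHD8, CHD9, SRCAP and EP400, and SMARCD3 was higher. The removal of the trend moved the median deviation of the 43 members in replicate 1 from -0.15 to -0.05 log2 CPM. Protein-coding genes tested then had a median of 0.03. The members below 0 went from 30 to 27. Single genes differed: ARID1A was left at -0.46, CHD9 at -0.70, EP400 at -0.71 and BCL11A at -0.74 log2 CPM in replicate 1. SMARCC1, at -0.31 before, moved to 0.09 and SMARCA5, at -0.13 before, to 0.39.

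The tables also give the transcript length that RSEM weighted by the estimated isoforms of each library, which bears on TPM. It was shortest in replicate 1 for 24 of 40 detected members, against 31.9% of detected protein-coding genes. In 2 detected members, against 2.56% of such genes, the longest exceeded the shortest by at least 1.5 times. They were CHD6, with 5268.67, 8871.6 and 9171.52 bases, and DPF3, with 3247.92, 2957.08 and 4619.36 bases. For CHD6 the counts of 1485, 3624 and 3241 thus differed more between libraries than its 11.58, 16.17 and 17.97 TPM. CHD8 (3115.35, 4568.81 and 4277.75 bases), CHD9 (4375.84, 6053.86 and 6051.16 bases) and EP400 (5822.47, 7999.85 and 7924.92 bases) also had their shortest value in replicate 1. Of the 40 detected members 19 had an expected count that was not whole in some library, against 37.7% of detected protein-coding genes, as RSEM gives where it divides reads between genes.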

How the data were processed

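The members and gene lists were chosen with earlier results of these data known. Per the labels, the molecule was polyA RNA, harvested with an RNeasy kit, and the library kit was NEBNext Ultra II DNA. No source used here gives the strandedness or the annotation release. GRCh38, RSEM 1.3.1, STAR 2.7.11a and Trim Galore 0.6.10 are listed in the submitters' processing notes, with no role or order. The deposited expected counts are RSEM estimates of reads per gene, not normalized, with 30038114 to 38400092 per library. The deposited TPM values are scaled for effective length and library size, as the authors made them, and the deposited FPKM values were used only in an alternative. Lengths are other deposited values, weighted by isoform.

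Genes were typed by GENCODE 29, which matched 92.8% of identifiers. Paralogs were compared on log2(TPM + 0.1) by an exact sign-flip test. Excess spread was tested in edgeR 4.0.16 under R 4.3.3 after rounding the expected counts to whole values (TMM, filterByExpr, intercept only). The residual deviance at the trended dispersion was referred to a chi-square distribution (2 degrees of freedom), with Benjamini-Hochberg adjustment over 17046 genes. The step was run on data simulated from its own fitted means and dispersions, with changes planted in single libraries. Such data cannot test those fitted values, and no recovery rate is given here for changes of the size seen in the members. DESeq2 1.42.0 was an alternative. Deviations are log2 CPM (prior count 0.5) of a library minus the mean of the others, and the length trend was a lowess fit on log2 effective length. Any member could be named, all switch regulators, the 3 highest neuron markers, and of each partner list the 3 highest detected and up to 2 undetected genes. Gene positions are from RefSeq (GRCh38.p14). Alternatives were other detection minimums, FPKM, CPM, pseudocounts, 1 length per gene, other normalizations, filters and dispersions, a removed length trend and each replicate left out. Python 3.11.15, numpy 2.4.6, pandas 2.3.3, scipy 1.17.1 and matplotlib 3.10.9 were used. Protein sequences were not used here.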

Additional observations from a re-analysis of the deposited data

How the results depend on the processing

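No paired analysis was possible because the series has 1 group, so that no replicate numbers are shared between groups. Paralogs were compared within each library. The signs of the paralog differences held under the pseudocounts, length settings and left-out libraries tried, with these exceptions. In CPM without length scaling BCL7C minus BCL7A was -1.25, BCL7B minus BCL7A -1.07, SMARCA5 minus SMARCA1 0.33 and CHD8 minus CHD7 -0.67. CHD8 minus CHD7 was also -0.01 with 1 effective length per gene and -0.10 to 0.09 with 1 replicate left out. In CPM the summed PHF10 and DPF2 minus summed DPF1 and DPF3 was 3.19. The number of members detected was 39 or 40 throughout, and 7 neuron markers were detected at a minimum of 5 TPM. Excess spread in edgeR was called in 0 members with a common dispersion (5 at an unadjusted p under 0.05), in 0 with the length trend removed (3 at an unadjusted p under 0.05), and in 0 to 0 with 1 replicate left out, where 95 to 117 genes were called in all. DESeq2 called 13 members and 1668 genes. The cause of the difference between the tools was not tested. Low counts limit ACTL6B (8 to 24) and CHD5 (28 to 52).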
